A study of Mus musculus with 15 samples.

Results

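Alternative splicing at 20 weeks of age was compared between 2 induced and 3 control libraries of mouse skeletal muscle, across every splicing event with a value in all 5 libraries. The deposited table listed 39123 events for 15 libraries, and 32295 of them, in 8550 named genes, had a value in each of the 5 libraries of week 20. Both induced libraries came from mice homozygous for TREDT960I, a transgene whose transcript carries expanded CUG repeats, that also carried MDAFrtTA, the transgene that switches the repeat RNA on when doxycycline (dox) is given. These mice received dox from postnatal day 1 (PN1). The 2 no-dox libraries came from mice with both transgenes that received none, and the 1 dox control came from a mouse with TREDT960I alone that received it, so the repeat transgene itself was shared by all 5. Neither the promoter that drives MDAFrtTA nor the line of origin is given in the sources used here.

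All 5 animals were female. Induced replicate 1 and the dox control were gastrocnemius, whereas induced replicate 2 and both no-dox libraries were quadriceps. Among the week 20 controls, the muscle and the kind of control therefore cannot be told apart. The labels give no animal numbers, so a p-value here measures the spread between libraries. The RNA was poly-A selected whole muscle, in which a fraction averages over all cells, and fewer cells of a type and less RNA per cell cannot be told apart.

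In myotonic dystrophy type 1, RNA with expanded CUG repeats gathers in nuclear foci and sequesters the muscleblind-like (MBNL) proteins, which bind pre-mRNA and regulate many exons that switch between fetal and adult forms in muscle. Loss of free MBNL returns such exons toward the fetal pattern. In muscle, the chloride channel Clcn1 and the calcium pump Atp2a1 are textbook examples of transcripts affected in this way.

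Each value is a percent spliced in (PSI) printed as a fraction from 0 to 1, the share that the listed form takes among the alternative forms of that event. For skipped exons the listed form was taken to be inclusion of the exon, and for introns the unspliced form. Other kinds of event are given only as the PSI of the form listed. Skipped exons made up 9588 of the 32295 events. There were 7380 events at last exons and 4886 at first exons, 3692 with competing 3' and 2356 with competing 5' splice sites, 2236 retained introns, 1124 tandem 3' untranslated regions and 1033 pairs of mutually exclusive exons. The depth behind a value is unknown, because the table holds fractions without counts.

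The 5 libraries had values for 34416 to 35411 events. Pairwise correlation of PSI across events, given as a description, was 0.955 to 0.958 among 4 of them and 0.949 to 0.955 between no dox replicate 2 and the rest. No dox replicate 2 also had the fewest values at exactly 0 or 1, 1036 against 1461 to 1912 in the other 4. It lay at least 0.1 above or below all 14 other libraries of the series in 484 events, against 277 to 290 for each of the other week 20 libraries. Of 15 marker genes of the skeletal muscle fibre, 13 had an event in all 5 libraries. The transgene is not a feature of the table, so the repeat RNA itself was not analysed here.

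Of all 32295 events, 1 changed between week 20 induced and control libraries (0.00310%), called where the limma adjusted p was under 0.05 and PSI differed by 0.1 or more. It lay at the last exons of Map3k2 on chromosome 18, which encodes a MAP kinase kinase kinase of stress and growth signalling. Its PSI was 0.17 and 0.16 in the induced libraries, 0.04 and 0.05 without dox and 0.03 in the dox control. Both induced libraries lay above all 3 controls, in gastrocnemius by 0.140 and in quadriceps by 0.115. The PSI rose by 0.126 ± 0.0083 (SE; limma with a variance trend and robust moderation over all 15 libraries, adjusted p = 0.000796, Benjamini-Hochberg over all events). At weeks 6 and 12 the same event had stood at 0.02 in all 4 induced libraries and at 0.01 to 0.04 in the 6 controls. The week 20 difference exceeded the mean difference of weeks 6 and 12 by 0.130 ± 0.0102 (limma adjusted p = 0.00444), and 1 event of 32243 passed that test too (0.00310%).

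An exact permutation test of the Map3k2 values over the 5 libraries gave a two-sided p of 0.2, the smallest that 2 against 3 libraries allow. The call was lost on a logit scale (limma adjusted p = 0.365), without the dox controls (0.212) and with the week 20 libraries fitted alone (0.698 with a muscle term and 0.977 without), and over all alternatives the adjusted limma p ranged from 0.000237 to 0.977. The difference in PSI stayed between 0.117 and 0.136 in all of them, though for the logit scale it was carried over from the main fit.

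Without the aid of other weeks, an event was called separated when both induced libraries lay above, or both below, all 3 controls with means at least 0.1 apart. There were 1812 separated events (5.61%), 855 with the higher PSI in induced muscle (2.65%) and 957 with the lower (2.96%). Of these, 746 also had an unadjusted limma p under 0.05 (2.31% of all events). Separation refers to week 20 alone, and in some separated events controls of weeks 6 and 12 reached the week 20 induced values.

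Among separated events with the higher PSI, ranked by limma p, Map3k2 came first and a first exon of Ift172, a subunit of the intraflagellar transport machinery of cilia, came next. Ift172 stood at 0.71 and 0.61 in induced muscle, at 0.13 and 0.19 without dox and at 0.07 in the dox control. The fitted difference was 0.525 ± 0.0582 (limma adjusted p = 0.159, with 2 control libraries of other weeks missing from the fit), and all 4 induced libraries of weeks 6 and 12 had lain between 0.25 and 0.40. A first exon of Prkcd, the protein kinase C delta gene, stood at 0.81 and 0.85 against 0.69, 0.65 and 0.61. Its controls of weeks 6 and 12 had lain higher, between 0.71 and 0.77, and its earlier induced libraries between 0.73 and 0.84. A 3-nt alternative 3' splice site of Dazap1, an RNA-binding protein gene (chr10:80277572-80277575), stood at 0.29 and 0.31 against 0.10, 0.14 and 0.06. Neither pair overlapped its controls, and neither passed the test (limma adjusted p = 0.552 and 0.675).

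A last exon of Exoc4, a subunit of the exocyst that tethers secretory vesicles, stood at 0.92 and 0.90 in induced muscle against 0.55, 0.65 and 0.60 in the controls. A first exon of Syne2, which encodes the nuclear envelope protein nesprin-2, stood at 0.79 and 0.84 against 0.58, 0.49 and 0.39. Its controls of weeks 6 and 12 had ranged from 0.65 to 0.84, above the week 20 controls. Its induced libraries had then ranged from 0.54 to 0.77. Mdn1, an ATPase of ribosome assembly, had a first exon at 0.65 and 0.58 against 0.16, 0.17 and 0.19. The week 12 no-dox libraries of this event had stood at 0.57 and 0.45, and the induced libraries of weeks 6 and 12 at 0.09 to 0.19. All 3 events, in Exoc4, Syne2 and Mdn1, carried an adjusted limma p of 0.675. So did a 7-nt 5' splice site of Zmym6, a 170-nt 5' splice site of 8430429K09Rik and exclusive exons of Tbp. The event of 8430429K09Rik stood at 0.55 and 0.68 in induced muscle against 0.19, 0.28 and 0.20, but the week 6 no-dox libraries had reached 0.56 and 0.58. A 145-nt exclusive exon of Gm15787 and a 68-nt exon of Hsd17b14, a steroid dehydrogenase gene, completed the 12, with adjusted limma p of 0.464 and 0.668. For Hsd17b14 the week 20 controls (0.49 to 0.57) lay below those of weeks 6 and 12 (0.70 to 0.80). The week 20 induced libraries, at 0.78 and 0.73, lay within that earlier range.

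Among separated events with the lower PSI, a 55-nt alternative 3' splice site of Trmu, which encodes an enzyme that modifies mitochondrial tRNA (chr15:85892567-85892622), came closest to the threshold. It stood at 0.79 and 0.77 in induced muscle, at 0.95 and 0.89 without dox and at 0.96 in the dox control. The 10 libraries of weeks 6 and 12 had lain between 0.91 and 0.97. The fitted difference was -0.159 ± 0.0174 (limma adjusted p = 0.0560), and it passed the threshold when no dox replicate 2 was left out (adjusted p = 0.00939). A first exon of Adgrl3, the adhesion receptor latrophilin-3, stood at 0.26 and 0.20 against 0.55, 0.53 and 0.54 (-0.317 ± 0.0426, limma adjusted p = 0.159), and it was the 1 event called on a logit scale.

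A 412-nt intron of Agrn, the agrin gene that organises the neuromuscular junction (chr4:156173131-156173542), was retained at 0.05 and 0.02 in induced muscle against 0.16, 0.20 and 0.20 (limma adjusted p = 0.190). A 95-nt exon of Meis1, a homeobox transcription factor (chr11:18883988-18884082), was included at 0.69 and 0.56 against 0.89, 0.89 and 0.90 (limma adjusted p = 0.552). In both events the induced libraries lay below a narrow range of controls. An 89-nt exon and a version 3 nt shorter of Sbf2, a gene of the myotubularin-related family, share a boundary, so they are not independent. Their PSI was 0.84 and 0.70 against 0.89, 0.87 and 0.95 for the longer form (limma adjusted p = 0.395). Events of Ctdspl2, Ptpn13, Phf21a, Rps6ka1, Tanc2 and Pphln1 made up the rest of the 12 with fitted differences of -0.445 to -0.12 (limma adjusted p of 0.464 to 0.552).

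**Figure D1:**
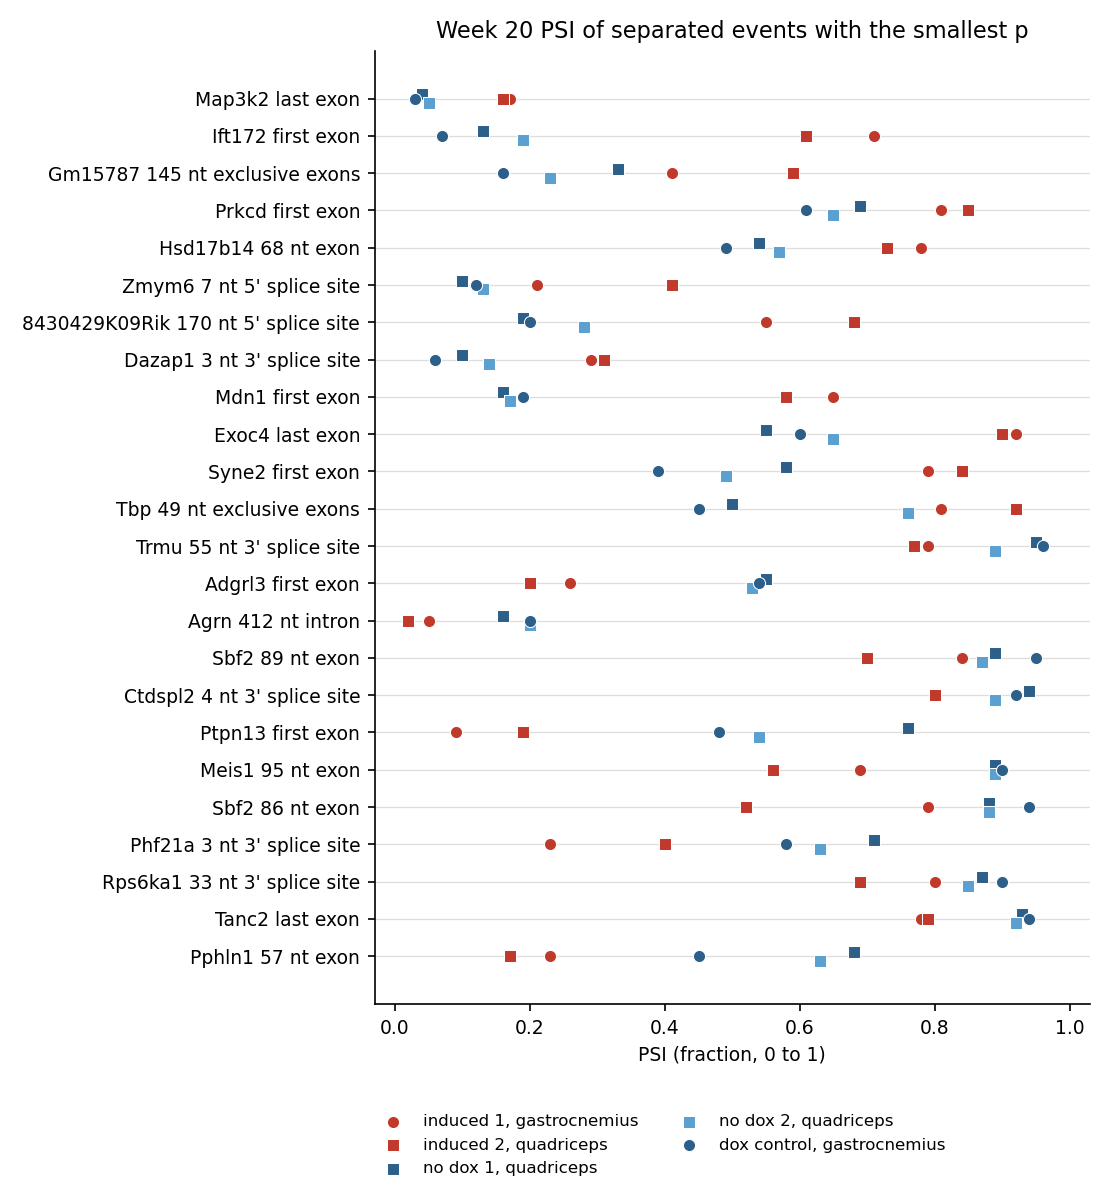
PSI (x axis, fraction from 0 to 1) of the 24 separated events with the smallest limma p, 12 higher and 12 lower in induced muscle, in each of the 5 week 20 libraries (1 point per library, circles for gastrocnemius, squares for quadriceps). For every event the red induced points lie on 1 side of all blue control points, which is how the events were picked, and Map3k2 at the top shows 0.16 and 0.17 against 0.03 to 0.05.

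Differences were also taken within each muscle, from libraries that the muscles do not share. The gastrocnemius difference was induced replicate 1 minus the dox control, and the quadriceps difference was induced replicate 2 minus the mean of both no-dox libraries. Across the 32295 events the correlation of these differences was -0.006, given as a description across events of 5 libraries. Both differences reached 0.1 in the same direction in 1466 events and in opposite directions in 1496.

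Events that distinguish induced muscle were then taken from the other weeks, with no week 20 library in the choice. A fit to the 10 libraries of weeks 6 and 12 alone gave the 100 events, in 84 genes, with the smallest limma p and a difference of at least 0.1. At week 20, 67 of these 100 events lay in the direction of weeks 6 and 12 and 33 in the opposite one. Of the 29986 events with any difference at weeks 6 and 12, 14806 kept that direction (49.4%). Another 13978 took the opposite one, and 1202 had a week 20 difference of 0. Separation at week 20 was in the earlier direction in 16 of the 100 events (2.87% over those 29986) and against it in 3 (2.72%). Among the 1969 other events with a difference of at least 0.1 at weeks 6 and 12, which match the chosen ones more closely in size, 51.8% lay in the earlier direction, 9.55% were separated in it and 7.82% against it. The median week 20 difference toward the earlier direction was 0.044, and the median at weeks 6 and 12, whose size the choice itself favours, was 0.189.

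The count in the earlier direction was 71 of 100 in gastrocnemius and 58 in quadriceps, with 46 events in that direction in both muscles and 15 against it in both. Without induced replicate 1 it was 62, and without induced replicate 2 it was 72. Measured from the control mean of weeks 6 and 12, the median shift was 0.086 in induced replicate 1 and 0.060 in induced replicate 2. The controls shifted by medians of 0.013, 0.017 and 0.018. Both induced libraries thus lay above every control in this median, with quartiles that overlapped between libraries. By kind of event, 37 of 47 skipped exons kept the direction, and 5 of 16 alternative last exons did.

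**Figure D2:**
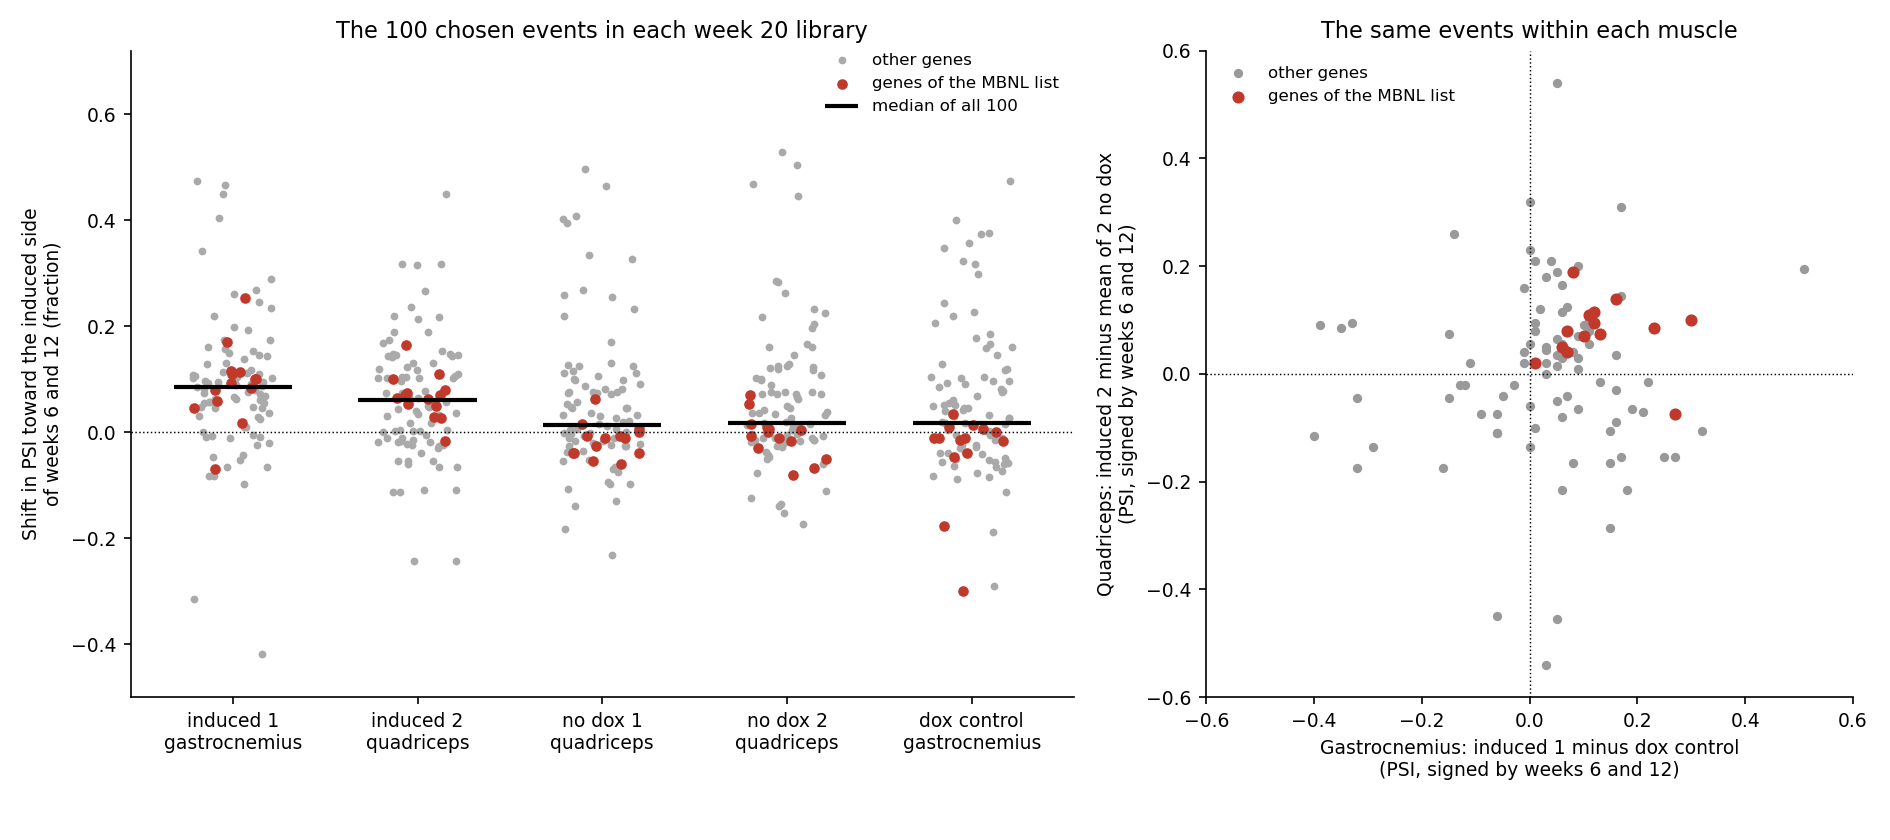
The 100 events chosen at weeks 6 and 12, with genes of the MBNL list in red. Left, the shift in PSI from the control mean of weeks 6 and 12, signed so that the induced side is positive, in each week 20 library (1 point per event, black line for the median, 0.086 and 0.060 in the induced libraries and 0.013 to 0.018 in the controls). Right, the signed week 20 difference in gastrocnemius (x axis) and in quadriceps (y axis), where 46 events lie in the upper right quadrant and the red points lie there with 1 exception, Ttn.

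Genes known as MBNL or myotonic dystrophy splicing targets held 14 of the 100 events, in 10 genes. All 14 lay in the earlier direction at week 20, 7 of them separated, with 14 in that direction in gastrocnemius and 13 in quadriceps. Their median week 20 difference was 0.104, against 0.210 at weeks 6 and 12. The other 86 events lay in the earlier direction in 53 cases (61.6%), with 9 separated in it and 3 against it. The list of MBNL targets was compiled with results of these data known, so its counts describe these libraries and are not independent evidence.

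Of the MBNL genes themselves, Mbnl1 showed 3 of these events. A 1049-nt exon of Mbnl1 (chr3:60528756-60529804) was included at 0.78 and 0.68 in induced muscle, at 0.55 and 0.53 without dox and at 0.62 in the dox control. The groups did not overlap, and the difference was 0.156 ± 0.0479 (limma adjusted p = 0.845), against 0.238 at weeks 6 and 12, when the induced libraries had ranged from 0.77 to 0.89. The 54-nt exon of Mbnl1 (chr3:60614683-60614736), whose inclusion favours nuclear localisation of the protein, stood at 0.14 and 0.13 against 0.05, 0.05 and 0.07. The 54-nt exon of Mbnl2 (chr14:120395712-120395765) stood at 0.14 and 0.11 against 0.07 in each control. Both induced libraries lay above every control for both 54-nt exons, by less than the 0.1 required of a separated event.

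Among contractile and calcium-handling genes, the 186-nt exon of the Z-disc gene Ldb3 (chr14:34555343-34555528) was included at 0.13 and 0.14 in induced muscle against 0.02, 0.04 and 0.02. The difference was 0.119 ± 0.0555 (limma adjusted p = 0.991), and at weeks 6 and 12 the induced libraries had ranged from 0.15 to 0.42. The 42-nt exon of Atp2a1, the fast-fibre calcium pump (chr7:126446545-126446586), was at 0.90 and 0.93 in induced muscle and at 1.00 in all 3 controls. The same exon had been at 0.41 to 0.87 in the induced libraries of weeks 6 and 12, so both week 20 values lay above that range. A 303-nt exon of Ttn, the giant spring protein of the sarcomere, stood at 0.56 and 0.45 against 0.53, 0.52 and 0.29, and its groups overlapped.

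Transcription factor and trafficking genes were among the 14 as well. A 123-nt exon of Nfix, a factor of fetal muscle gene expression (chr8:84723728-84723850), was included at 0.36 in both induced libraries against 0.24, 0.25 and 0.24. This exon differed by 0.12 in gastrocnemius and by 0.115 in quadriceps, against 0.226 at weeks 6 and 12 (limma adjusted p at week 20 = 0.982). The 24-nt exon of Clasp1, which encodes a microtubule plus-end protein (chr1:118541675-118541698), stood at 0.46 and 0.27 against 0.20, 0.14 and 0.16. At weeks 6 and 12 the controls of this exon (0.16 to 0.27) had reached the lowest induced library (0.27). Exclusive exons of Dnm2, the membrane fission GTPase dynamin-2, stood at 0.21 and 0.15 against 0.07, 0.08 and 0.08. A 96-nt exon of Rapgef1, a guanine nucleotide exchange factor gene, was included less, at 0.34 and 0.29 against 0.51, 0.45 and 0.42. The groups of these 4 events did not overlap. Nfix also had a first exon at 0.61 and 0.78 against 0.64, 0.75 and 0.38, and there the groups overlapped. A 35-nt exon of Pdp1, a phosphatase that activates the pyruvate dehydrogenase complex, gave the last events of the 14, a pair that share the exon, with 0.16 and 0.18 against 0.13, 0.13 and 0.10 in one and 0.05 and 0.06 against 0.04 in each control in the other.

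**Figure D3:**
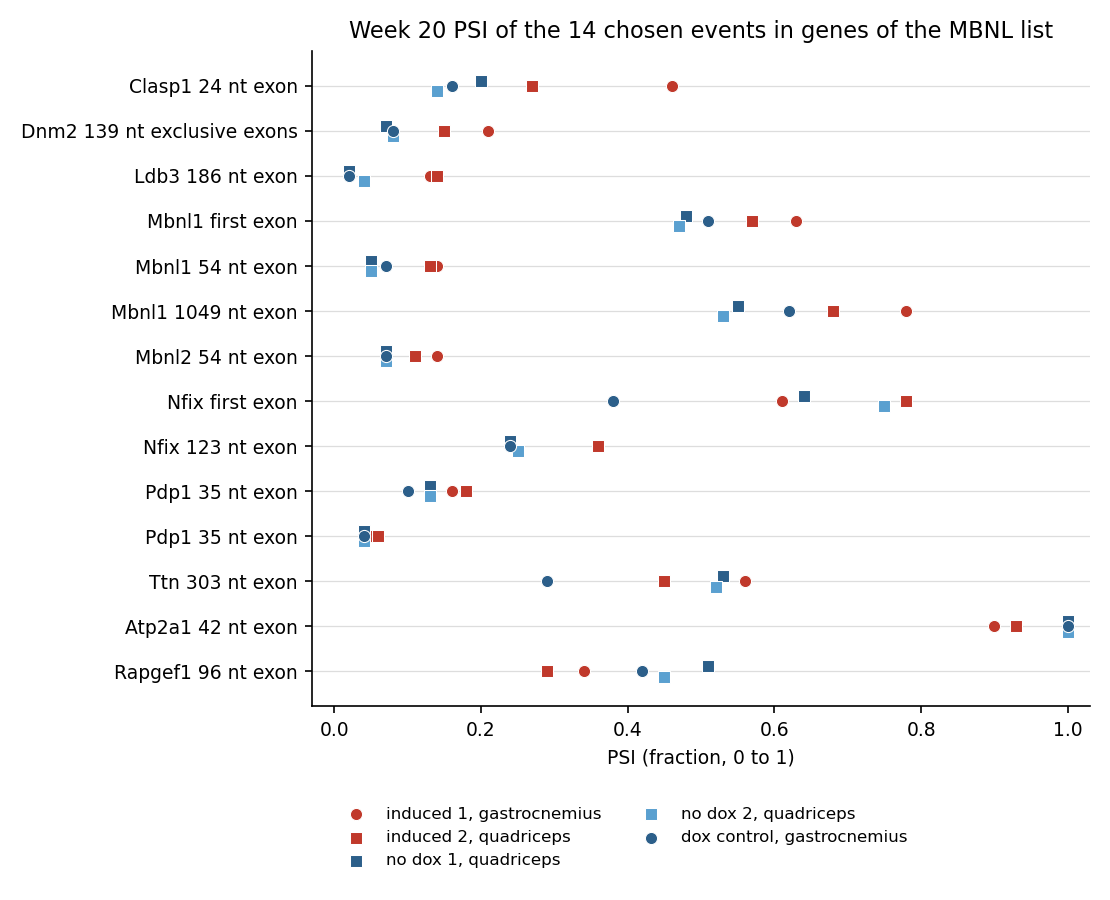
PSI (x axis, fraction from 0 to 1) of the 14 chosen events in genes of the MBNL list, in each of the 5 week 20 libraries (circles for gastrocnemius, squares for quadriceps, red for induced, blue for control). For 12 events both induced points lie on 1 side of all control points, and for Ttn and the Nfix first exon they do not.

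Several genes linked to the muscle symptoms of the disease showed small or mixed week 20 differences. The 79-nt exon of Clcn1, the main chloride channel of muscle (chr6:42293444-42293522), was at 0.06 and 0.04 in induced muscle against 0.05, 0.11 and 0.03 in the event with the smallest p at weeks 6 and 12. An event with the same exon and other flanks, picked after its values were seen, gave 0.14 and 0.51 against 0.12, 0.25 and 0.07, so the induced quadriceps stood above all controls and the induced gastrocnemius did not. An exon of Cacna1s, the voltage sensor of excitation-contraction coupling, was at 0.99 in both induced libraries and at 0.99 to 1.00 in the controls. A 93-nt exon of Bin1, which shapes the transverse tubules, was at 0.02 in both induced libraries and at 0.01 in every control. A 129-nt exon of Camk2b, a calcium-dependent kinase gene, was at 0.85 and 0.83 against 0.86, 0.85 and 0.80, although at weeks 6 and 12 the induced libraries (0.51 to 0.81) had lain below the controls (0.82 to 0.90).

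For Mef2d, a muscle transcription factor gene, exclusive exons stood at 0.24 and 0.21 against 0.16, 0.16 and 0.19, without overlap. A 231-nt exon of Map4k4, a stress-signalling kinase gene, stood at 0.37 and 0.28 against 0.20, 0.22 and 0.10. An event with the same exon and other flanks stood at 0.84 and 0.78 against 0.88, 0.84 and 0.63, where the groups overlapped. A first exon of Dmd, the dystrophin gene, stood at 0.73 and 0.86 against 0.92, 0.90 and 0.93, below the controls, whereas the induced libraries of weeks 6 and 12 (0.92 to 0.96) had lain above theirs (0.76 to 0.91). For Ryr1, Insr, Dtna, Mef2a, Fxr1, Nfia and Capzb, the event of each gene with the smallest p at weeks 6 and 12 had a fitted difference of -0.0175 to 0.0511. Other events of Dtna and Capzb were separated, a last exon of Dtna at 0.49 and 0.43 against 0.54, 0.53 and 0.69 (-0.1475, limma adjusted p = 0.812) and a first exon of Capzb at 0.48 and 0.36 against 0.52, 0.49 and 0.57 (-0.1106, limma adjusted p = 1.0). The Pdlim3 event was at 0 in all 5 libraries. None of these events passed the test, which does not show that they were equal.

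Beyond the MBNL list, events chosen at weeks 6 and 12 that were also separated at week 20 in the same direction came from Synj2, Ap1b1, Pip5k1a, Chka, Myh8, Prc1, Atp9b, Ankzf1 and Mapt. A 54-nt exon of Mapt, the tau gene (chr11:104307881-104307934), was at 0.77 and 0.78 in induced muscle against 0.92, 0.93 and 0.94. A 21-nt exon of Ap1b1, a clathrin adaptor subunit gene (chr11:5033242-5033262), was at 0.23 and 0.25 against 0.11, 0.14 and 0.16. A 140-nt intron of Ankzf1 was retained at 0.11 and 0.21 against 0.34, 0.47 and 0.62. The 3 events separated against the earlier direction were exons of Plekha5 and Resf1 and a last exon of Obsl1. Plekha5, for example, had its 18-nt exon at 0.22 and 0.16 against 0.44, 0.23 and 0.38, after 0.33 to 0.48 in induced and 0.11 to 0.27 in control libraries at weeks 6 and 12.

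The difference at week 20 was also tested against the mean difference of weeks 6 and 12 for each event. Among the events with the smallest p for a higher difference, besides Map3k2, was a 69-nt exon of Flt3l, a cytokine gene (chr7:45132069-45132137), which stood at 0.87 and 0.83 in induced muscle against 0.69, 0.64 and 0.68. The groups did not overlap. At weeks 6 and 12 the induced libraries of this event had ranged from 0.57 to 0.81 and the controls from 0.76 to 0.89. A 5' splice site of Yipf2 and the exon of Hsd17b14 belonged to the same set. Trmu, Efemp2, Pstpip2 and Sbf2 were among those with the smallest p in the other direction. A last exon of Pstpip2, an actin-binding adaptor of leukocytes, stood at 0.58 and 0.53 against 0.84, 0.80 and 0.82, after 0.83 to 0.89 in the induced libraries of weeks 6 and 12. The adjusted limma p of these 7 events was 0.349 to 0.559, and 1511 events had an unadjusted limma p under 0.05 (4.69%).

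Tnnt3, which encodes fast skeletal troponin T, separated the controls from each other. A 41-nt exon of Tnnt3 (chr7:142513665-142513705) was at 1.00 and 0.99 in induced muscle and at 1.00 in the dox control, but at 0.51 and 0.24 in the no-dox libraries. The 10 libraries of weeks 6 and 12, 2 of them quadriceps, were at 0.96 to 1.00. The low values therefore belonged to the pair of no-dox libraries of week 20, and the difference was 0 within gastrocnemius and 0.615 within quadriceps. In 27 events this pair lay at least 0.1 away from all 13 other libraries, which placed it at rank 10 among the 105 pairs of libraries (median 13 events). They included a first exon of Tenm3, at 0.07 and 0.12 against 0.60, 0.57 and 0.59, and 2 first exons of Ktn1.

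Genes of slow, oxidative muscle fibres, a list added after the values were seen, set induced replicate 2 apart. In 8 of 14 events of 6 slow-fibre genes, this quadriceps library lay at least 0.1 above or below the other 4 libraries of week 20, against 1304 of all 32295 events (4.04%). A first exon of Tpm3, the slow tropomyosin gene, stood at 0.79 in induced replicate 2 but at 0.02 in induced replicate 1, 0.14 and 0.06 without dox and 0.07 in the dox control. In 1 event the 79-nt exon of Tpm3 was at 0.11 in that library against 0.89, 0.35, 0.55 and 0.63. Another event with the same exon was at 0.54 in that library against 1.00, 0.98, 0.99 and 0.99. A 48-nt exon of Tnni1, slow troponin I (chr1:135799973-135800020), was at 0.41 in that library and at 0.83 in induced replicate 1, with the controls at 0.58, 0.61 and 0.66. A first exon of Myh7, the slow myosin heavy chain gene, was at 0.34 against 0.02 to 0.03, and a 66-nt exon of Myl2, a slow myosin light chain gene, was at 0.14 against 0 in the other 4. Of the 8 events, 5 belong to Tpm3 and share reads. Induced replicate 1 stood apart in 3 of the 14 events and each control in 0. The Tpm3 first exon also reached 0.37 and 0.17 in the 2 quadriceps libraries of the earlier weeks, an induced and a no-dox one, against at most 0.04 in the gastrocnemius of those weeks.

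Events of Tpm3, Myh7 and Myl2 were among the 19 events called when induced replicate 1 was left out, against 1 with it. The induced arm of week 20 is then 1 library, assumed to vary like the other groups, so these calls restate that replicate 2 stands apart. The part of these fibre-type values in the other quadriceps differences was not tested.

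**Figure D4:**
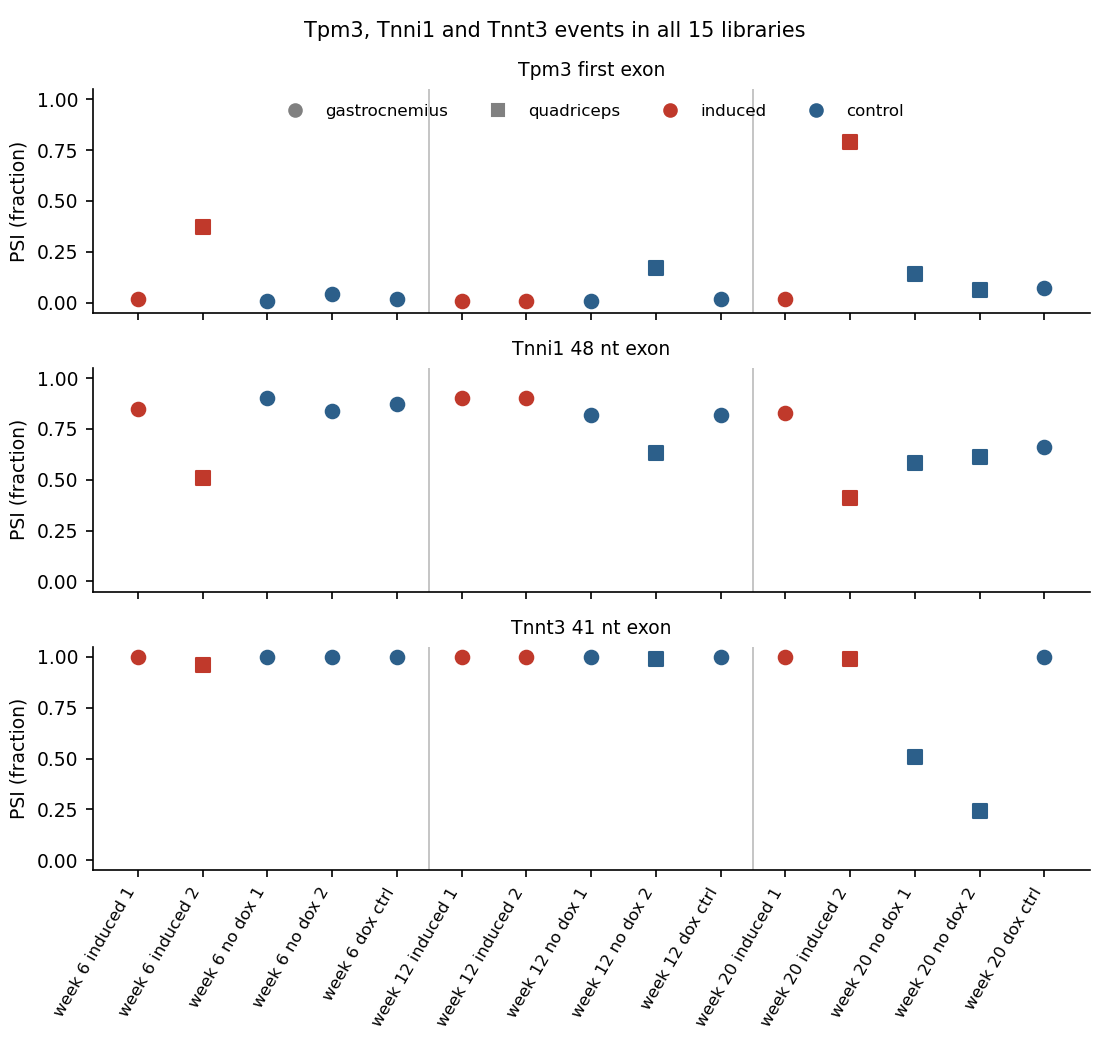
PSI (y axis, fraction from 0 to 1) of 3 events in all 15 libraries (x axis, ordered by week, circles for gastrocnemius, squares for quadriceps, red for induced, blue for control). The Tpm3 first exon peaks at 0.79 in week 20 induced replicate 2, the Tnni1 exon is lowest there at 0.41, and the Tnnt3 exon is below 0.96 only in the week 20 no-dox libraries, at 0.51 and 0.24.

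Which events had a value at all also differed at week 20. A missing value marks an event that the authors' table leaves blank in that library, and their minimum number of reads is not given in the sources used here. A value in both induced libraries and in no control was found for 177 of 39123 events (0.452%), and the reverse for 91. Genes of T and natural killer lymphocytes, in a list of 24 compiled after these values were seen, accounted for 14 of the 177, from 40 events in 16 genes in the table (35.0%). Of these 40 events, 34 and 37 had a value in the induced libraries, 13 in each no-dox library and 14 in the dox control. At weeks 6 and 12, 10 to 20 of them had a value in any library, induced or control, so both week 20 induced libraries lay above all 13 others.

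The 14 events included those of Bcl11b, Cd27, Cd4, Cd8a, Lck, Nkg7, Skap1, Slamf1, Slamf7 and Zap70. Those of Slamf7 and Zap70 also had values in some control libraries of the earlier weeks. Cd4 and Cd8a encode the coreceptors of helper and cytotoxic T cells, Lck and Zap70 encode kinases of T cell receptor signalling, and Nkg7 encodes a granule protein of cytotoxic lymphocytes. The last exon of Cd4 had a PSI of 0.77 and 0.61, and an exon of Cd8a had 0.34 and 0.75, with no value in the week 20 controls. The PSI of a first exon of Lck was 0.77 and 0.80. Among 14 pan-leukocyte genes, 36 and 41 of 43 events had a value in induced muscle, against 24, 25 and 24 in the controls, but earlier libraries reached 38, controls included.

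Macrophage and monocyte genes had values for 19 and 21 of 23 events in induced muscle against 18, 16 and 14, and B lymphocyte genes for 4 and 2 of 11 against 2 in each control. At weeks 6 and 12 these counts reached 23 and 8 in induced libraries and 22 and 5 in controls. Endothelial genes had 34 or 35 of 35 events in the 5 libraries, and fibroblast genes had all 13. A last exon of Ptprc, the pan-leukocyte phosphatase CD45, stood at 0.16 and 0.05 in induced muscle against 0.50, 0.36 and 0.59 (limma adjusted p = 0.675, with 3 libraries of other weeks missing from the fit). The part of leukocyte RNA in the Map3k2, Ptprc, Pstpip2 or other differences was not tested.

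**Figure D5:**
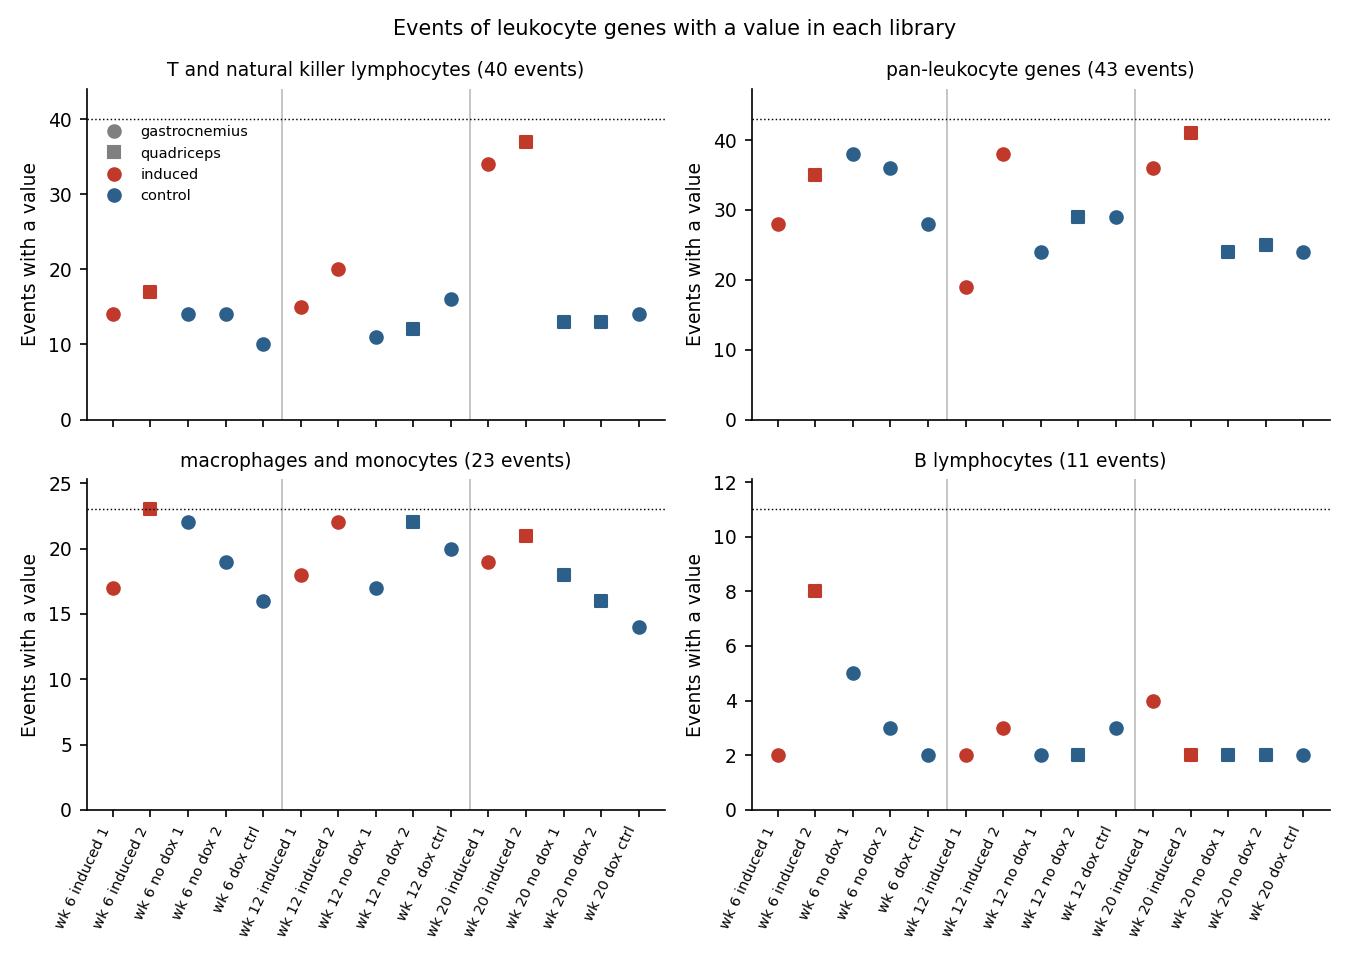
Number of events with a value (y axis) among events of 4 groups of leukocyte genes, in each of the 15 libraries (x axis, circles for gastrocnemius, squares for quadriceps, red for induced, blue for control, dotted line for all events of the group in the table). For T and natural killer lymphocytes the week 20 induced libraries reach 34 and 37 of 40, and the other 13 libraries lie between 10 and 20.

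Gene groups were described by how many of their events were separated, beside 5.61% over all events. MBNL and myotonic dystrophy targets as a whole, 524 events in 62 of 64 genes, were near that share, with 19 higher and 10 lower (5.53%). Besides the exons above, they included a 27-nt exon of Mtmr3 at 0.74 in both induced libraries against 0.84, 0.87 and 0.83, and a 3-nt 3' splice site of Clcn1 at 0.42 and 0.51 against 0.31, 0.30 and 0.22. Over all 524 events the correlation between the gastrocnemius and quadriceps differences was -0.205, with both at least 0.1 in the same direction in 14 events and in opposite directions in 40. RNA-binding protein genes had 9 events higher and 11 lower (5.73%). A 53-nt exon of Rbfox1, a splicing factor gene (chr16:7391988-7392040), stood at 0.77 and 0.73 against 0.89, 0.89 and 0.94.

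Sarcomere and Z-disc genes had 4 higher and 2 lower of 217 (2.76%), and energy metabolism genes had 0 higher and 2 lower of 150 (1.33%), in Dnm1l and Ndufs1. Genes of excitation-contraction coupling and ion channels had 6 higher and 3 lower (4.35%). Among them a 12-nt exon of Kcnma1, the large-conductance potassium channel gene (chr14:23449200-23449211), stood at 0.35 and 0.22 against 0.07, 0.10 and 0.05. Week 12 no dox replicate 2 had stood at 0.33 in this event. Sarcolemma and cytoskeleton genes had 19 higher and 18 lower (5.73%), with a first exon of Limch1 at 0.86 and 0.90 against 0.69, 0.63 and 0.63. Endocytosis and vesicle traffic genes had 11 higher and 13 lower (7.10%), and kinase, phosphatase and insulin signalling genes had 17 higher and 7 lower (8.54%).

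Transcription factor and chromatin genes had 28 higher and 25 lower of 464 (11.4%), in 20 genes. A 63-nt exon of Tead1, a muscle transcription factor gene (chr7:112841888-112841950), stood at 0.27 and 0.55 against 0.76, 0.71 and 0.70. A last exon of Tcf7l2, a Wnt effector, stood at 0.29 and 0.34 against 0.57, 0.48 and 0.61. At weeks 6 and 12 the Tcf7l2 controls had ranged from 0.11 to 0.36. Genes of regenerating or developing muscle had 4 higher and 9 lower of 75 (17.3%), in 7 genes. For Myh8, which encodes perinatal myosin, a last exon stood at 0.11 and 0.07 against 0.64, 0.31 and 0.38, and another stood at 0.20 and 0.20 against 0.78, 0.70 and 0.25. Events of 1 gene share reads, so they are not independent. Marker genes of other cell types had 3 higher and 2 lower (5.81%), and broadly expressed control genes had 4 higher and 2 lower (7.50%). By the other measure, an unadjusted limma p under 0.05, transcription factor events numbered 25 (5.39%) and kinase, phosphatase and insulin signalling events 11 (3.91%), beside 1616 of all 32295. Regeneration events numbered 8 (10.7%). The median absolute difference was 0.034 for transcription factor events and 0.042 for regeneration events, against 0.022 over all events.

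By kind of event, alternative first exons were separated most often among the 8 kinds (9.31%), with a median absolute difference of 0.040, and alternative last exons least often (3.96%). Retained introns were lower in 73 separated events and higher in 28 (4.52%). Apart from Map3k2, no event in any of these lists or kinds passed the test.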

How the data were processed

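Per the labels' protocols, poly-A selected RNA of single muscles was sequenced as paired-end reads. The submitters' processing notes name TopHat and mm10. The authors deposited PSI as a fraction from 0 to 1 for each event and library, with 2 decimals, and the table's own name calls it MISO output. The sources used here give no versions, annotation or minimum reads. Columns were matched to samples by the library identifier in the titles. First- and last-exon events were named by their gene ID (14604 named, 56 not) and the other 24463 by the file's symbol where RefSeq places it at the position (21817) or by RefSeq (1801), with 845 unnamed. Printed positions come from the event names (mm10).

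A linear model of PSI, with 1 mean per week and arm (induced or control) and a muscle term, was fitted to all 15 libraries in limma 3.58.1 (R 4.3.3) with variance trend and robust moderation. The week 20 contrast was tested over 32295 events with Benjamini-Hochberg adjustment, and an event was called where the adjusted p was below 0.05 and PSI differed by 0.1 or more. The script was tested on simulated data. Named events are those called, the 12 separated events per direction with the smallest p, 1 event for each gene of a panel by its p at weeks 6 and 12, up to 3 separated events per list and up to 5 per direction for week 20 against weeks 6 and 12. Some genes that these rules name are not reported here. Members, lists and rules were chosen with earlier results of these data known. Slow-fibre and leukocyte lists were added after the values were seen and received no test. Alternatives were a logit scale (values kept 0.01 away from 0 and 1), other minimum differences, and events with a mean PSI of 0.05 to 0.95 or with 15 values. Further ones were no muscle term, moderation without variance trend and robust option, other controls, week 20 alone, a replicate block and each library left out. Summaries and figures used Python 3.11.15, pandas 2.3.3, numpy 2.4.6, scipy 1.17.1 and matplotlib 3.10.9. Depth is unknown, so no interval from counts is given.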

Additional observations from a re-analysis of the deposited data

Results flagged for a closer look

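The alternative last exon of Map3k2 differed between weeks by a test of the difference itself. Its induced-minus-control difference at week 20 exceeded the mean difference of weeks 6 and 12 by 0.13 in PSI (limma adjusted p = 0.00444), with both week 20 induced libraries, at 0.17 and 0.16, above the 13 other libraries, which lay between 0.01 and 0.05. The difference between weeks was not called on a logit scale (adjusted p = 0.604) or with the dox controls left out (0.617). Across all alternatives its limma adjusted p ranged from 0.00156 to 0.899.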

How the results depend on the processing

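The count of 1 event called at week 20 became 0 at a minimum difference of 0.2, for a mean PSI of 0.05 to 0.95, without the dox controls, with the replicate block on those libraries, with the no-dox libraries as the only controls, and with week 20 fitted alone with or without the muscle term. It was 2 without the variance trend and the robust option of the moderation, and 5 with the dox control alone. With 1 library left out it ranged from 1 to 19 (19 without week 20 induced replicate 1, 4 without replicate 2, 2 without no dox replicate 2). For week 20 against weeks 6 and 12 the count of 1 became 0 at a minimum difference of 0.2, for a mean PSI of 0.05 to 0.95, without the dox controls and with the replicate block, and ranged from 1 to 13 with 1 library left out (13 without week 20 induced replicate 1). On a logit scale both counts stayed at 1, with other events in place of Map3k2 (Adgrl3 at week 20). The 1812 separated events became 3076 at a minimum of 0.05 and 574 at 0.2, and 2849 to 4796 with 1 library left out (3193 without the dox control), since fewer libraries separate more easily. Of the 100 chosen events, 62 to 72 kept their direction with 1 library left out; 50 events gave 66.0%, 200 gave 63.0% and 1 event per gene 66.7%.

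Of 2018 values of 78 named events under 26 alternatives, 39 had the other sign, and 0 of these were among the 60 separated events. With the dox control alone, Camk2b was 0.0833, Clcn1 0.0183, Ryr1 -0.0083, Capzb 0.0433 and Cacna1s 0.0017. Without the dox controls, and with the no-dox libraries alone, Mef2a was 0.0317 and Dtna 0.0033. With the replicate block, Ttn was -0.0050, Mef2a 0.0283, Nfia -0.05 and Dtna 0.0033. Camk2b was 0.0033 without the muscle term and 0.0071 with week 20 alone and the term, and Mef2a was 0.0014 there. Without the week 20 dox control, Mef2a was 0.02 and Dtna 0.0055, and without that of week 12 Mef2a was 0.0015. The cause was not tested. With 1 library left out, values ranged from -0.0206 to 0.0003 for Cacna1s, -0.062 (-0.0267 with an induced or no-dox library left out) to 0.015 for Camk2b, -0.1209 to 0.1018 for Capzb, -0.0355 (-0.0279 likewise) to 0.01 for Clcn1, -0.0758 to 0.0615 for Dtna, -0.0003 to 0.0706 for Insr, -0.0594 to 0.0497 for Mef2a, -0.0524 to 0.1112 for Nfia and -0.0488 to 0.2176 for Ttn. Deviations of libraries with the same replicate number correlated at 0.01, -0.014 and 0.012 at weeks 6, 12 and 20. These correlations across events showed no sign of pairing by number, but they cannot exclude a shared origin of such libraries.

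The 5 libraries cannot reach an exact permutation p under 0.2, muscle and kind of control cannot be told apart, and unknown read numbers leave every event with equal weight in the fit.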

Other observations

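Among events with a value in both week 20 induced libraries and in no week 20 control, several lay outside the lymphocyte list. In the pan-leukocyte list, Il10ra, the receptor of the cytokine interleukin-10, had an exon at 0.53 and 0.67, and Itgb2, the leukocyte integrin beta-2 gene, had a 5' splice site at 0.13 and 0.04. Controls of week 6 did have values for both events, 0.64 to 0.80 for Il10ra and 0.16 and 0.07 for Itgb2. A 19-nt exclusive exon of Tnnt3, the fast troponin T gene, stood at 0.07 and 0.10, and an exon of Klhl32 stood at 0.49 and 0.72. These genes were picked after their values were seen. The number of reads behind each value is unknown, so a value in induced muscle and a blank in the week 20 controls gives no fold difference.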
